A study of Mus musculus with 6 samples.

Results

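Complement is a set of plasma and tissue proteins that tag targets and call in phagocytes, and the genes described here cover the first steps of its classical arm together with the receptors that read its small split products. The 9 genes were C1qa, C1qb, C1qc, C1ra, C1s1, C3, C4b, C3ar1 and C5ar1. They were taken by gene name from a table of 33965 genes, and each name matched 1 row. The choice was made with earlier results of these data known. Bulk RNA-seq, which averages the RNA of all cells in a tissue piece, was measured in 6 tumors of MC38, a mouse colon carcinoma cell line, grown under the skin of C57BL/6 mice and thus outside the colon. In the PBS group 3 tumors came from mice given PBS, which the series title calls untreated. In the GB2 group 3 tumors came from mice given GB2, a prodrug in which a disulfide that glutathione can cleave joins MSA-2, an agonist of STING, to artesunate, which the study uses as an inhibitor of TREM2. The labels give no dose, day or age, name no genetic change in either group, and do not state that each tumor came from a separate mouse, so p-values measure only the spread between these 6 samples.

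The libraries held between 64764405 and 83690056 estimated counts, about 4 counts to 1 read pair, and the GB2 libraries were the larger ones. CPM are counts relative to edgeR's TMM-scaled library sizes, and FPKM are the deposited values per transcript length. GB2 tumor 1 stood apart from the other 5 tumors in liver transcripts. Its summed level of 6 hepatocyte genes was 2.41 CPM against 287 to 462 CPM elsewhere, and albumin, at 1.30 CPM there, ranged from 200 to 361 CPM in the others. PBS tumor 1 stood apart on the first principal component of the tested genes and had the highest sum of 4 red cell genes, 6280 CPM against 80.9 to 2170 CPM in the others. Epithelial markers, the origin of MC38, were low in all tumors, at 2.60 to 7.85 CPM in sum over 6 genes, and 1 of the 6 had too few counts to be tested.

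In the classical arm, C1q is the recognition molecule. It is a hexamer built from A, B and C chains, encoded by C1qa, C1qb and C1qc, and it binds immune complexes, dying cells and pentraxins. The proteases C1r and C1s ride on it and cleave C4 and then C2. The resulting convertase splits C3, whose large fragment attaches to the target through a thioester and whose small fragment, an anaphylatoxin, is read by the receptor C3ar1. C5ar1 is the matching receptor for the fragment of C5. In tissues and tumors C1q is known to come mostly from macrophages, whereas plasma C3 and C4 are made largely by the liver.

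A gene counted as called when it reached 0.05 after Benjamini-Hochberg adjustment in edgeR's quasi-likelihood fit and differed at least 2-fold, and no gene of the table did. That is 0 of 9 members against 0% of the 19602 genes tested. The smallest adjusted p was 0.109, and 1564 genes had an unadjusted p under 0.05. DESeq2 called 372 genes and 4 of the members. All 4 were higher in GB2 tumors, against 1.45% of the 23164 genes to which DESeq2 gave an adjusted p. With both an unadjusted p below 0.05 and a difference of 2-fold or more, edgeR had 5 of the 9 members higher in GB2 tumors, against 4.37% of all genes tested. These were the 3 C1q chains and both anaphylatoxin receptors, and they were also the 5 members in which the lowest GB2 tumor exceeded the highest PBS tumor, a pattern seen in 8.61% of genes tested. The fitted log2 fold change was above 0 in 8 of 9 members, or in 6 to 8 with single tumors left out, the 6 being without GB2 tumor 3, against 48.4% of genes tested. Counts of higher and lower genes in the lists below give the sign of this fitted value, whatever its p. The median log2 fold change was 1.68 over the members and -0.017 over all genes tested. Because the members were chosen with earlier results of these data known, these shares describe them and test nothing. The count past the unadjusted p and the fold limit was also 5 without PBS tumor 1 and without GB2 tumor 1. In bulk RNA, fewer cells of a type and less RNA per cell cannot be told apart.

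**Figure D1:**
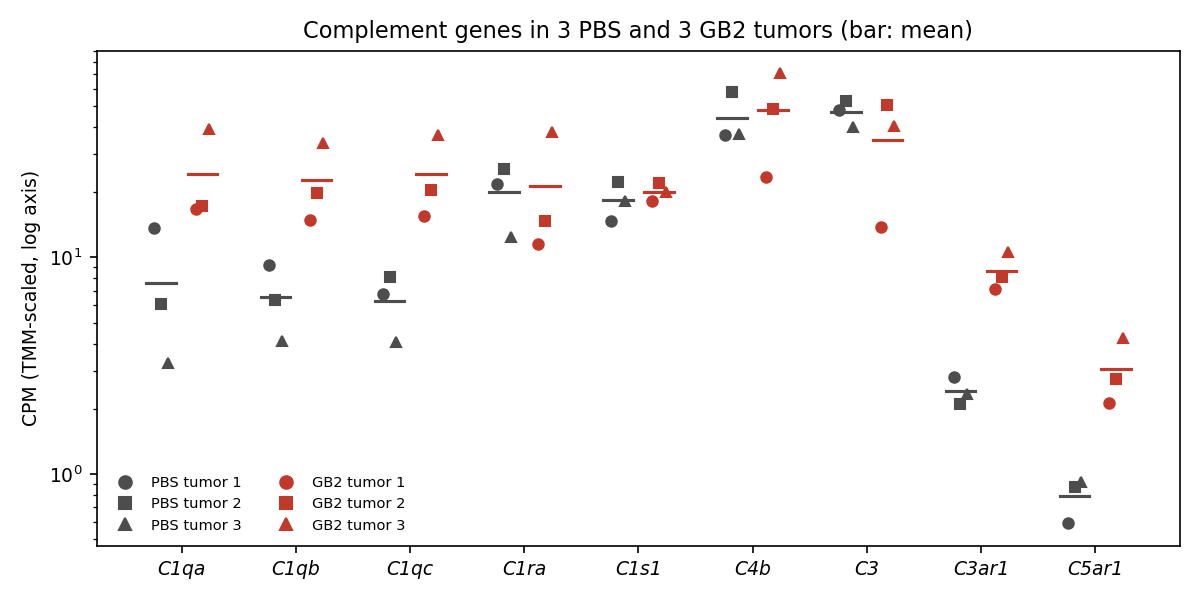
CPM of the 9 complement genes in each tumor on a log axis, with grey symbols for PBS tumors, red symbols for GB2 tumors, the symbol shape for the tumor number and a short bar for the group mean. The groups are apart for C1qa, C1qb, C1qc, C3ar1 and C5ar1 and overlap for C1ra, C1s1, C4b and C3.

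All 3 C1q chains were higher in GB2 tumors, by 3.21-fold for C1qa, 3.49-fold for C1qb and 3.83-fold for C1qc in the edgeR fit. C1qa, the A chain, read 13.6, 6.09 and 3.24 CPM in PBS tumors 1 to 3 and 16.7, 17.3 and 39.2 CPM in GB2 tumors 1 to 3. The groups did not overlap, but PBS tumor 1 came close to the lowest GB2 tumor, and GB2 tumor 3 lay far above the rest of its group. The log2 fold change of C1qa was 1.68 ± 0.55 (SE) (edgeR unadjusted p = 0.0148, adjusted p = 0.421).

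C1qb, the B chain, read 9.23, 6.37 and 4.13 CPM in PBS and 14.9, 19.8 and 33.9 CPM in GB2 tumors. Its groups were apart, again with GB2 tumor 3 the highest and PBS tumor 3 the lowest. The log2 fold change was 1.80 ± 0.39 (SE) (edgeR unadjusted p = 0.00179, adjusted p = 0.203, DESeq2 adjusted p = 0.00139). C1qc, the C chain, had the largest difference of the 3 chains, with 6.81, 8.09 and 4.06 CPM in PBS tumors and 15.5, 20.5 and 36.6 CPM in GB2 tumors. The log2 fold change of C1qc was 1.94 ± 0.39 (SE) (edgeR unadjusted p = 0.00106, adjusted p = 0.178, DESeq2 adjusted p = 0.00029). Only C1qa of the 3 missed the DESeq2 limit, at an adjusted p of 0.0567.

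C1qa was also the chain that depended most on single tumors. Without PBS tumor 1 its log2 fold change was 2.40, and without GB2 tumor 3 it was 1.16, where the unadjusted p was 0.0677. Without PBS tumor 2 the unadjusted p was 0.0521 at a log2 fold change of 1.55. C1qb and C1qc passed the unadjusted p and the fold limit whichever tumor was left out, with log2 fold changes of 1.41 to 2.14 and 1.51 to 2.18.

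The chains were compared with each other per transcript length. Their summed FPKM was 21.5, 15.3 and 8.76 in PBS tumors 1 to 3 and reached 37.6, 43.4 and 87.1 in GB2 tumors 1 to 3. The mean was 15.2 ± 6.35 FPKM (SD, n = 3) in PBS and 56.0 ± 27.1 FPKM (SD, n = 3) in GB2 tumors. Within that sum the parts of the chains stayed close between groups. C1qa made up 41.1% ± 9.54 of it in PBS and 40.7% ± 3.50 in GB2 tumors (SD, n = 3 each, exact two-sided permutation p = 0.9). The C1qb part was 37.6% ± 4.17 and 37.3% ± 2.42 (p = 0.9 by the same exact permutation test, n = 3 each). The C1qc part was 21.3% ± 6.41 and 22.0% ± 1.12 (p = 1.0 by the same exact permutation test, n = 3 each). The smallest p that 3 against 3 tumors allow is 0.1, so these values bound no difference by themselves. The chain composition of PBS tumor 1 differed from the rest, with C1qa at 52.1% and C1qc at 14.1% of the sum, against 34.5% to 42.9% and 21.2% to 26.4% in the other 5 tumors.

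**Figure D2:**
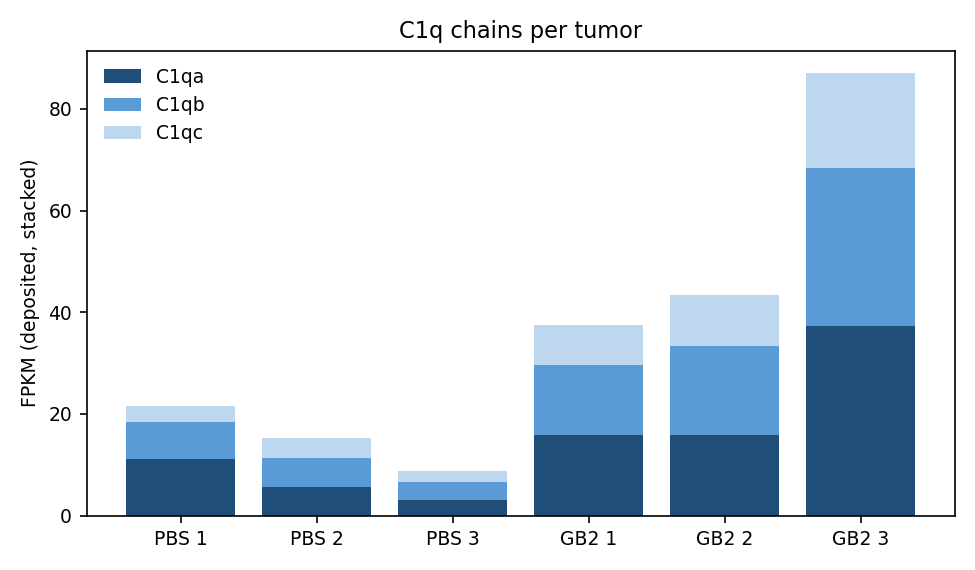
Deposited FPKM of C1qa, C1qb and C1qc stacked for each of the 6 tumors. The summed height runs from 8.76 to 21.5 FPKM in PBS tumors and from 37.6 to 87.1 FPKM in GB2 tumors.

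The C1q genes lie side by side on the minus strand of chromosome 4. On the positions of the deposited table, which are not those of GRCm38, C1qb spans 136607440 to 136613498, C1qc 136617115 to 136620376 and C1qa 136623228 to 136626114, with gaps of 3616 and 2851 bases. None of the 9 genes overlapped another gene of the table. Within the groups the chains kept step. The deviations of the 6 tumors from their group means in log2 CPM correlated at 0.96 between C1qa and C1qb, 0.89 between C1qb and C1qc and 0.77 between C1qa and C1qc, values that describe 6 libraries with depth and tissue in common.

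The bases before the start site are shown for C1qb and C1qc, as neighbouring genes that were higher together, and for the 2 anaphylatoxin receptors. C3 and C1ra are shown beside them as members whose groups overlapped. RefSeq promoter windows of GRCm38.p6 matched 7 of the 9 members. The 250 bases before each start are given 5′ to 3′ on the strand of the gene. Capitals mark matches on either strand to 7 patterns: ISRE core GAAANNGAA, GAS TTCNNNGAA, an ETS pattern of the PU.1 kind GAGGAA, AP-1 TGANTCA, C/EBP TTNNGNAA, NF-kappa B GGGANTTTC and TATAAA.
C1qb (chr4:136886201-136886450, minus): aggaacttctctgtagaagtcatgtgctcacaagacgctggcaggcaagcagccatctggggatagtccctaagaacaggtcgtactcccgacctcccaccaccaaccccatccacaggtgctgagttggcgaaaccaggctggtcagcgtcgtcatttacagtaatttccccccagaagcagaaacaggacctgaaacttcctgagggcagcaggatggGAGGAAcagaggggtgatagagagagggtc
C1qc (chr4:136892915-136893164, minus): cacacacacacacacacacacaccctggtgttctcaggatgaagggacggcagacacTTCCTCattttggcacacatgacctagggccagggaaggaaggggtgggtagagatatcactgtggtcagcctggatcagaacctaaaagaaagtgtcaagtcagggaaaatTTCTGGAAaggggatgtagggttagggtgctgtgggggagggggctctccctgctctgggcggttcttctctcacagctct
C3ar1 (chr6:122856158-122856407, minus): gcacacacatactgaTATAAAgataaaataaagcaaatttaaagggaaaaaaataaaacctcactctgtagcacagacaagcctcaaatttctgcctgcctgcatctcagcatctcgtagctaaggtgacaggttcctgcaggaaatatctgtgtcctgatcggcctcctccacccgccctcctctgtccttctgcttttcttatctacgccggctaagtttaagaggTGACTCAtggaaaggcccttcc
C5ar1 (chr7:16259339-16259588, minus): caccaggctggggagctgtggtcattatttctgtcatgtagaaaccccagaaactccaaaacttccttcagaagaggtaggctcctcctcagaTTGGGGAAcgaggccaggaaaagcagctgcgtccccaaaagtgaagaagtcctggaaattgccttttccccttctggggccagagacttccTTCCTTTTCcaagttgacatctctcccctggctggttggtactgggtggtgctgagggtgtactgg
C3 (chr17:57228137-57228386, minus): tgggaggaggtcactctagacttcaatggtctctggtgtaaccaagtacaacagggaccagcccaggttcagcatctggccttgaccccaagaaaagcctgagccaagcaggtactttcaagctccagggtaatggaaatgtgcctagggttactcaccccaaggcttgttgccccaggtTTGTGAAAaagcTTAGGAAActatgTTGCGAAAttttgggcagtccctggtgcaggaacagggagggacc
C1ra (chr6:124512371-124512620, plus): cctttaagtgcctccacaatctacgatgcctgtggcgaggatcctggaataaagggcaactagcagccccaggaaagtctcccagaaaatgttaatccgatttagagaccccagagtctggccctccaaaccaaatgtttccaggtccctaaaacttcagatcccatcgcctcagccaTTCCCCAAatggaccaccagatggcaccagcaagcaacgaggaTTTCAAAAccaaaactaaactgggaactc

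The ETS pattern GAGGAA, the letters bound by PU.1, a factor of myeloid cells, was found in both C1q windows. In C1qb it began at position -30 and in C1qc, on the opposite strand, at -193, where -1 is the last base before the start. It occurred in none of the other members' windows and in 23.3% of the 32851 RefSeq windows of the same length. C/EBP letters were found in C1qc, C1ra, C1s1, C5ar1 and C3, against 36.8% of all windows. C3 held 3 such places, at -70, -58 and -45, the last of them matching on both strands. The AP-1 letters stood at -22 in C3ar1, against 6.75% of all windows, and the same window had TATAAA at -235, against 12.4%. The ISRE core, the letters of the interferon-stimulated response element, was found on the opposite strand at -66 in C5ar1, against 7.13% of windows. No window of the 7 matched members held the GAS letters, which occurred in 7.02% of all windows, or those of NF-kappa B, which occurred in 0.941%. Such matches describe letters and not bound sites.

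For both proteases that ride on C1q the groups overlapped. C1ra, which encodes the protease that activates C1s, read 21.9, 25.6 and 12.4 CPM in PBS tumors and 11.5, 14.7 and 37.8 CPM in GB2 tumors. The groups overlapped, since GB2 tumors 1 and 2 lay among or below the PBS tumors and GB2 tumor 3 above all of them. GB2 and PBS differed by a log2 fold change of 0.10 ± 0.47 (SE) (edgeR adjusted p = 0.953). Its sign turned without GB2 tumor 3, to -0.60, without PBS tumor 3, to -0.15, and with the tumor number as a block, to -0.077.

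C1s1, the protease that cleaves C4 and C2, was the steadiest member, with 14.8, 22.3 and 18.3 CPM in PBS and 18.2, 22.0 and 20.0 CPM in GB2 tumors. All GB2 values lay within the range of the PBS tumors. For C1s1 the fitted log2 fold change was 0.12 ± 0.22 (SE) (edgeR adjusted p = 0.879), or -0.0034 without PBS tumor 1. The FPKM ratio of C1ra to C1s1 was 1.16 ± 0.421 (SD, n = 3) in PBS and 1.12 ± 0.754 (SD, n = 3) in GB2 tumors (exact two-sided permutation test on the log2 ratio, p = 0.8). GB2 tumor 3, at a ratio of 1.99, was the highest of the 6 and GB2 tumor 1, at 0.664, the lowest.

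Both genes lie on chromosome 6, C1ra at 124489364 to 124500402 on the plus strand and C1s1 at 124507304 to 124519318 on the minus strand of the deposited table, 6901 bases apart. Each has a near-identical copy in the mouse, C1rb and C1s2, and reads could be split between copies. The copies had few counts. C1rb had 1.11 CPM in PBS and 1.82 CPM in GB2 tumors on average, and C1s2 had 0.289 and 0.683 CPM. C1s2 was higher in every GB2 tumor, with a log2 fold change of 1.23 and a standard error of 0.47 (edgeR unadjusted p = 0.0316, adjusted p = 0.552). Within groups, C1ra moved with the C1q chains, its deviations correlating at 0.98 with those of C1qc and at 0.15 with those of C1s1, again over 6 libraries. The summed FPKM of the C1q chains was 2.08, 1.01 and 0.899 times that of C1ra and C1s1 together in PBS tumors, against 3.91, 3.8 and 4.61 times in GB2 tumors.

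C4b and C3 encode the thioester proteins that are laid down on targets. C4b read 36.6, 57.8 and 37.1 CPM in PBS and 23.6, 48.7 and 70.9 CPM in GB2 tumors, so that GB2 tumors held both the lowest and the highest value. Fitted over the groups, the log2 fold change was 0.12 ± 0.38 (SE) (edgeR adjusted p = 0.928). It was -0.28 without GB2 tumor 3 and 0.45 without GB2 tumor 1. C4b lies on chromosome 17 at 34947354 to 34962856 of the deposited table, minus strand, and its copy C4a had 3.08 CPM in PBS and 2.93 CPM in GB2 tumors.

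C3 was the only member with a fitted value below 0. It read 47.9, 52.5 and 40.1 CPM in PBS tumors and 13.8, 50.8 and 40.5 CPM in GB2 tumors. GB2 tumors 2 and 3 lay within the PBS range, and GB2 tumor 1 lay well below it. Its log2 fold change was -0.42 ± 0.41 (SE) (edgeR adjusted p = 0.783), and without GB2 tumor 1 it was -0.034. C3 lies on chromosome 17 at 57510970 to 57535136, minus strand.

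GB2 tumor 1 was also the tumor with by far the lowest level of liver transcripts. The summed CPM of the 6 hepatocyte genes was 410 in PBS tumor 1, 462 in PBS tumor 2, 287 in PBS tumor 3, 2.41 in GB2 tumor 1, 452 in GB2 tumor 2 and 311 in GB2 tumor 3. Ranked by this sum and by C3, the tumors fell in the same order. In the comparison of the groups, 0 of the 6 hepatocyte genes were higher and 6 were lower, 0 of them past the limits, with a median log2 fold change of -0.80, or -0.24 without GB2 tumor 1. The part of liver transcripts in the levels of C3 and C4b was not tested. In GB2 tumor 1, where the list summed to 2.41 CPM, C3 still had 13.8 CPM and C4b 23.6 CPM.

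**Figure D3:**
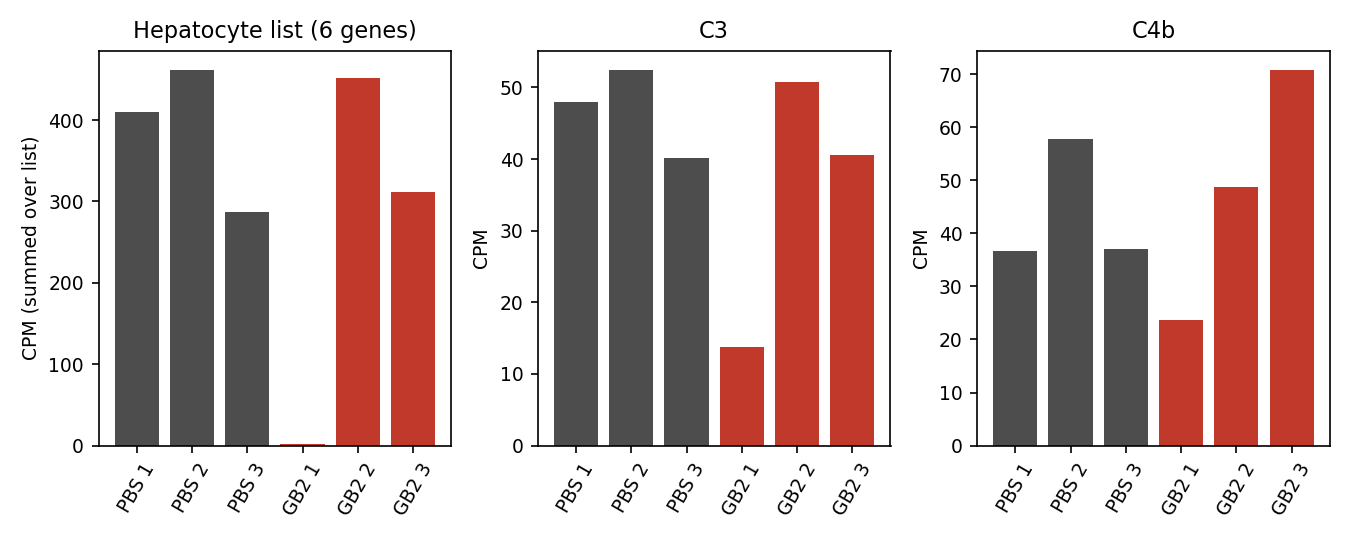
Summed CPM of 6 hepatocyte genes, CPM of C3 and CPM of C4b in each tumor, with grey bars for PBS and red bars for GB2 tumors and all axes starting at 0. GB2 tumor 1 has 2.41 CPM of the hepatocyte list and the lowest C3 and C4b of the 6 tumors.

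Both anaphylatoxin receptors were higher in GB2 tumors, and C3ar1 had the smallest p of the 9 members in the edgeR fit. C3ar1, the receptor for the small fragment of C3 on myeloid cells, read 2.79, 2.1 and 2.35 CPM in PBS tumors and 7.15, 8.14 and 10.6 CPM in GB2 tumors. The lowest GB2 tumor was above the highest PBS tumor by more than the whole range of the PBS group. The log2 fold change was 1.84 ± 0.28 (SE), a 3.59-fold difference (edgeR unadjusted p = 0.00017, adjusted p = 0.127, DESeq2 adjusted p = 1.3e-06). C3ar1 ranked 21 by p among the 19602 genes tested. Its log2 fold change stayed between 1.67 and 1.97 whichever tumor was left out.

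C5ar1, the receptor for the small fragment of C5, read 0.592, 0.866 and 0.920 CPM in PBS and 2.12, 2.74 and 4.26 CPM in GB2 tumors. Here too the groups were apart, at low levels, since the PBS tumors held 35, 61 and 65 counts. The log2 fold change was 1.93 ± 0.41 (SE), a 3.8-fold difference (edgeR unadjusted p = 0.0015, adjusted p = 0.195, DESeq2 adjusted p = 0.00124). It ran from 1.60 to 2.13 when single tumors were left out. C3ar1 lies on chromosome 6 at 122824097 to 122833120 and C5ar1 on chromosome 7 at 15980668 to 15993465 of the deposited table, both on the minus strand. C5ar2, a second receptor for the C5 fragment and the neighbour of C5ar1 at 2588 bases, had 0 counts in all 3 PBS tumors against 16, 17 and 26 counts in GB2 tumors. Against a floor of 3 read pairs per PBS library, its mean CPM was at least 1.29-fold higher in GB2 tumors.

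Per transcript length, the order of the members differed between the groups. In PBS tumors C3 led with 8.46 ± 1.19 FPKM (SD, n = 3), followed by C4b with 7.20 ± 2.26, C1qa with 6.61 ± 4.16, C1ra with 6.20 ± 2.1, and C1qb with 5.53 ± 1.79 and C1s1 with 5.53 ± 1.41. Each neighbour in that run overlapped the next over tumors, so their order is not fixed beyond the spread. C1qc at 3.03 ± 0.991, C3ar1 at 0.517 ± 0.0454 and C5ar1 at 0.289 ± 0.0807 FPKM (SD, n = 3 each) followed without overlap with the member directly above. For C1qc the gap was narrow, with a highest value of 4.03 FPKM against a lowest of 4.05 for C1s1. C1qc did overlap C1qa and C1qb, whose lowest PBS values were 3.03 and 3.69 FPKM. In GB2 tumors C1qa led with 23.1 ± 12.4 FPKM (SD, n = 3), then C1qb with 20.6 ± 9.08 and C1qc with 12.3 ± 5.73. C4b at 8.21 ± 4.11, C1ra at 7.04 ± 4.81, C3 at 6.64 ± 3.53 and C1s1 at 6.27 ± 0.470 came next, and the 7 members to that point overlapped with their neighbours. C3ar1 at 1.97 ± 0.427 and C5ar1 at 1.16 ± 0.431 FPKM (SD, n = 3 each) were again lowest, apart from each other and from C1s1. Mean FPKM of C1qa exceeded that of 66.4% of tested genes in PBS and 88.4% in GB2 tumors, and that of C1s1 62.7% and 64.8%.

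Along with the 5 members, markers of macrophages were higher in GB2 tumors, as were those of fibroblasts and endothelium below. Macrophages are known sources of C1q and carriers of both receptors. Of 12 macrophage markers, 12 were higher in the edgeR fit and 10 passed the unadjusted p and the fold limit, against 4.37% of all genes tested. Their median log2 fold change was 1.84. Their summed level was 54.8 to 80.5 CPM in PBS and 223 to 276 CPM in GB2 tumors, led by Lyz2, the lysozyme of phagocytes, and none of the 12 was at 0. Within the PBS group, C1qa was highest in tumor 1, at 13.6 CPM. The mean log2 CPM of the 12 markers was 1.33 there and 1.58 in PBS tumor 2, where C1qc was highest at 8.09 CPM. All 5 tested monocyte markers were higher, 3 of them past the limits, with sums of 3.37 to 8.57 CPM in PBS and 12 to 29.5 CPM in GB2 tumors and F13a1 the most abundant. All 6 tested neutrophil markers were higher, 5 of them past the limits, at 4.20 to 6.19 and 21.0 to 23.8 CPM in sum, although Ly6g, which defines neutrophils, had 0 counts in every tumor and Mmp9 led the list. The marker lists were chosen with earlier results of these data known. The part of these cells in the result was not tested.

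Set against the macrophage list, the members differed among themselves. The log2 CPM of a gene minus the mean log2 CPM of the 12 markers was 1.36 ± 0.50 in PBS and 1.42 ± 0.32 in GB2 tumors for the mean of the C1q chains (SD, n = 3 each). For C3ar1 this difference was -0.016 ± 0.41 and 0.039 ± 0.12, and for C5ar1 -1.61 ± 0.50 and -1.50 ± 0.23 (SD, n = 3 each). The groups overlapped for each of these genes on this relative scale, and they did so too against 8 fibroblast markers, where the mean of the C1q chains stood at -1.13 ± 0.68 in PBS and -0.89 ± 0.52 in GB2 tumors (SD, n = 3 each). C1ra stood at 2.96 ± 0.26 in PBS and 1.16 ± 0.58 in GB2 tumors, and C1s1 at 2.90 ± 0.33 and 1.27 ± 0.37 (SD, n = 3 each). C4b stood at 4.13 ± 0.22 and 2.38 ± 0.60, and C3 at 4.25 ± 0.11 and 1.88 ± 0.95 (SD, n = 3 each). For these 4 genes every GB2 tumor was below every PBS tumor relative to the list, as it was for 79.7% of all genes tested, since the list itself was higher by 1.76 in mean log2 CPM. No test was made on these differences.

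**Figure D4:**
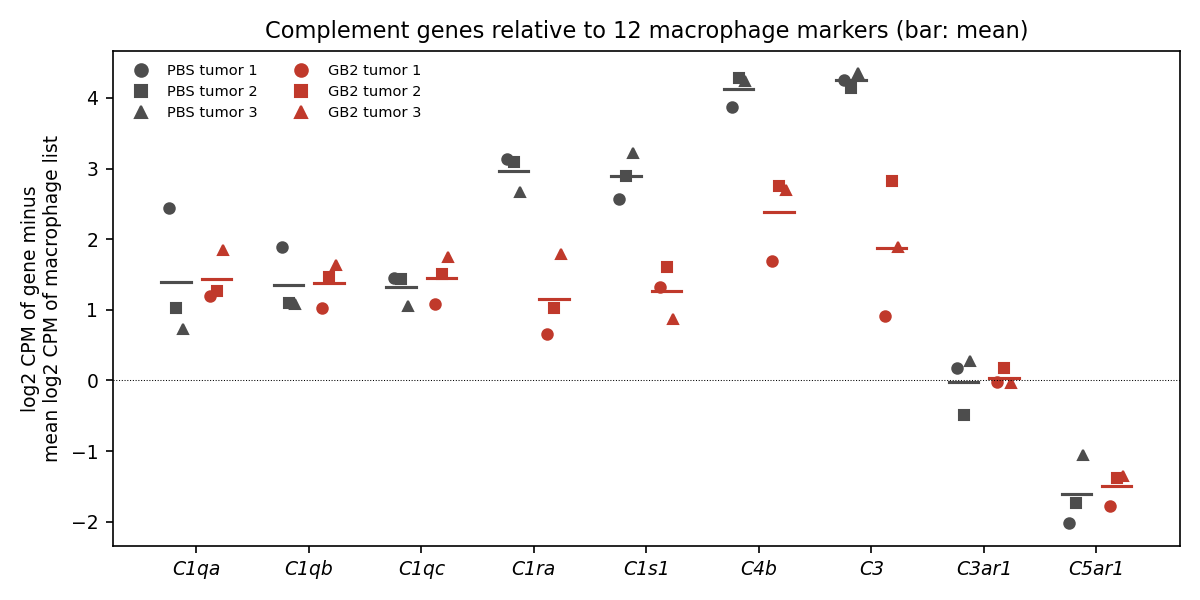
Log2 CPM of each complement gene minus the mean log2 CPM of 12 macrophage markers, per tumor, with bars for group means. The C1q chains and the receptors overlap between groups, whereas C1ra, C1s1, C4b and C3 lie lower in all GB2 tumors, as do 79.7% of all genes tested on this scale.

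Fibroblasts are known makers of C1r, C1s, C3 and C4, and their markers were higher too. All 8 fibroblast markers were higher and passed the unadjusted p and the fold limit, with sums of 295 to 525 CPM in PBS and 980 to 1350 CPM in GB2 tumors, led by the collagen gene Col3a1. None of the 8 was at 0, and their median log2 fold change was 1.5. Relative to this list C1s1 stood at 0.41 ± 0.19 in PBS and -1.04 ± 0.31 in GB2 tumors in log2 CPM (SD, n = 3 each). The list itself was higher by 1.58 in mean log2 CPM. On this scale every GB2 tumor was below every PBS tumor for C1s1 and likewise for C1ra, C3 and C4b. The share of all genes with that pattern was not computed for this list. Against the macrophage list it was 79.7%, so the pattern is not particular to these 4 genes there. Interferon-stimulated genes, another set that C1r, C1s and C4 are known to join in many cells, had fitted values above 0 in 12 of 12 cases with a median log2 fold change of 0.66, and 3 of the 12 passed the unadjusted p and the fold limit, against 4.37% of all genes tested. Those 3 were Irf7 at 1.64, Usp18 at 1.63 and Oasl2 at 1.45, and the lowest of the 12 was Isg15 at 0.039 (edgeR unadjusted p = 0.942). The part of fibroblasts and interferon in the levels of the members was not tested.

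The genes whose pattern over the 6 tumors was most like the C1q chains were sought among all other tested genes, by Pearson correlation with their mean log2 CPM. The closest 5 were Clec12a, an inhibitory lectin receptor of myeloid cells, Fcer1g, the signalling chain of Fc receptors, the kinase gene Camk1d, Glipr2 and Pmepa1, with r from 0.9955 down to 0.9901. Clec12a read 1.62, 1.18 and 0.877 CPM in PBS and 2.14, 2.22 and 3.56 CPM in GB2 tumors, the same order of tumors as the summed C1q chains. For the mean of C1ra and C1s1 the closest genes were the nuclear pore gene Nup62, the growth factor receptor gene Egfr, Nadsyn1, Mlph and Noc4l, with r from 0.9992 down to 0.9722. With 6 points that share tissue and library, and with 19602 genes to pick from, such values describe the ranking only.

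Of 51 further complement genes in the table, 48 were tested, and 25 were higher and 23 lower, with a median log2 fold change of 0.055. Of these, 8 were higher and 3 lower at the unadjusted p and the fold limit, against 4.37% higher and 1.2% lower of all genes tested. C5ar2 and Vsig4 are among the 8 and, with under 3 read pairs in every PBS tumor, entered the test through the GB2 tumors, so 6 remain without them. The median was 0.023 without GB2 tumor 1 and -0.011 without PBS tumor 1. Among 10 further receptors and binding proteins for C1q and for C3 and C5 fragments, 9 were higher and 6 of these passed the limits. Without C5ar2 and Vsig4, 7 of 8 were higher and 4 passed. Itgam, the CD11b chain of complement receptor 3, had 95, 230 and 51 counts in PBS and 705, 630 and 1200 counts in GB2 tumors, a log2 fold change of 2.42 ± 0.51 (SE) (edgeR adjusted p = 0.194), which ran from 2.03 without PBS tumor 3 to 3.13 without PBS tumor 2. Itgax, the CD11c chain of complement receptor 4, differed by 1.79 in log2 (edgeR adjusted p = 0.203), and Itgb2, the beta chain that both share, by 1.23 (edgeR adjusted p = 0.348). Cd93, a receptor of endothelial and myeloid cells, had 9.71 and 31.2 CPM and a log2 fold change of 1.68 ± 0.28 (SE) (edgeR adjusted p = 0.135). DESeq2 called 5 of the 48 genes, all higher, against 1.45% higher of the 23164 genes with a DESeq2 adjusted p. The 5 include C5ar2, which entered the test through the GB2 tumors. The others had DESeq2 adjusted p values of 3.2e-05 for Cd93, 4.0e-04 for Itgam, 0.00222 for Itgax and 0.0105 for the collectin gene Colec12. Vsig4, a macrophage receptor for C3 fragments, had about 2 read pairs over the PBS tumors against 20 over the GB2 tumors, a ratio of 7.94 with an exact 95% interval of 1.93 to 70.1 for counting error only.

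Of 11 tested genes beside C1 in the classical and lectin arms, 5 were higher and 6 lower, and without GB2 tumor 1 the count was 7 and 4. Past the limits were 2 higher genes and 1 lower gene, against 4.37% and 1.2% of all genes tested. Colec12, a scavenger collectin, was higher with a log2 fold change of 1.43 and a standard error of 0.34 (edgeR adjusted p = 0.237), and Mbl1, a mannose-binding lectin made by liver, was lower with -1.79 and 0.75 (edgeR adjusted p = 0.603), a value that ran from -2.63 without GB2 tumor 3 to -1.21 without GB2 tumor 1. Of the 3 alternative genes 3 had fitted values above 0, or 2 without GB2 tumor 1, and none passed the limits. Cfb, factor B of the C3 convertase, differed by 0.55 (edgeR unadjusted p = 0.0374) and Cfd, the protease that cleaves it, by 0.69 (edgeR unadjusted p = 0.343), or by 0.16 without PBS tumor 3.

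Most genes of the late steps had fitted values below 0. Of 7 terminal genes, whose products form the membrane attack complex, 6 were lower, 2 of them past the limits against 1.2% of all genes tested, with a median log2 fold change of -0.90. C9, the pore-forming unit, differed by -1.98 ± 0.76 (SE) (edgeR unadjusted p = 0.0321) and C8b by -1.67 ± 0.65 (SE) (edgeR unadjusted p = 0.0328). When single tumors were left out, C9 ran from -2.84 without GB2 tumor 3 to -1.39 without GB2 tumor 1, and C8b from -2.32 without GB2 tumor 2 to -1.13 without GB2 tumor 1. Of 10 fluid-phase regulators 9 were lower and 0 passed the limits, with a median of -0.75. Vtn, vitronectin, differed by -0.99, or by -0.48 without GB2 tumor 1, and Serping1, the inhibitor of C1r and C1s, by 0.56, neither at an unadjusted p under 0.05. GB2 tumor 1 read 0 counts for C9 and Mbl1, and without it the medians were -0.41 for the terminal genes and -0.20 for the regulators. Of 7 tested membrane regulators 6 were higher with a median of 0.089, or 0.42 without PBS tumor 1, and 0 passed the limits, and the smallest p values were those of Cd55, at 1.0 in log2, and Cd59b, at 0.59.

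**Figure D5:**
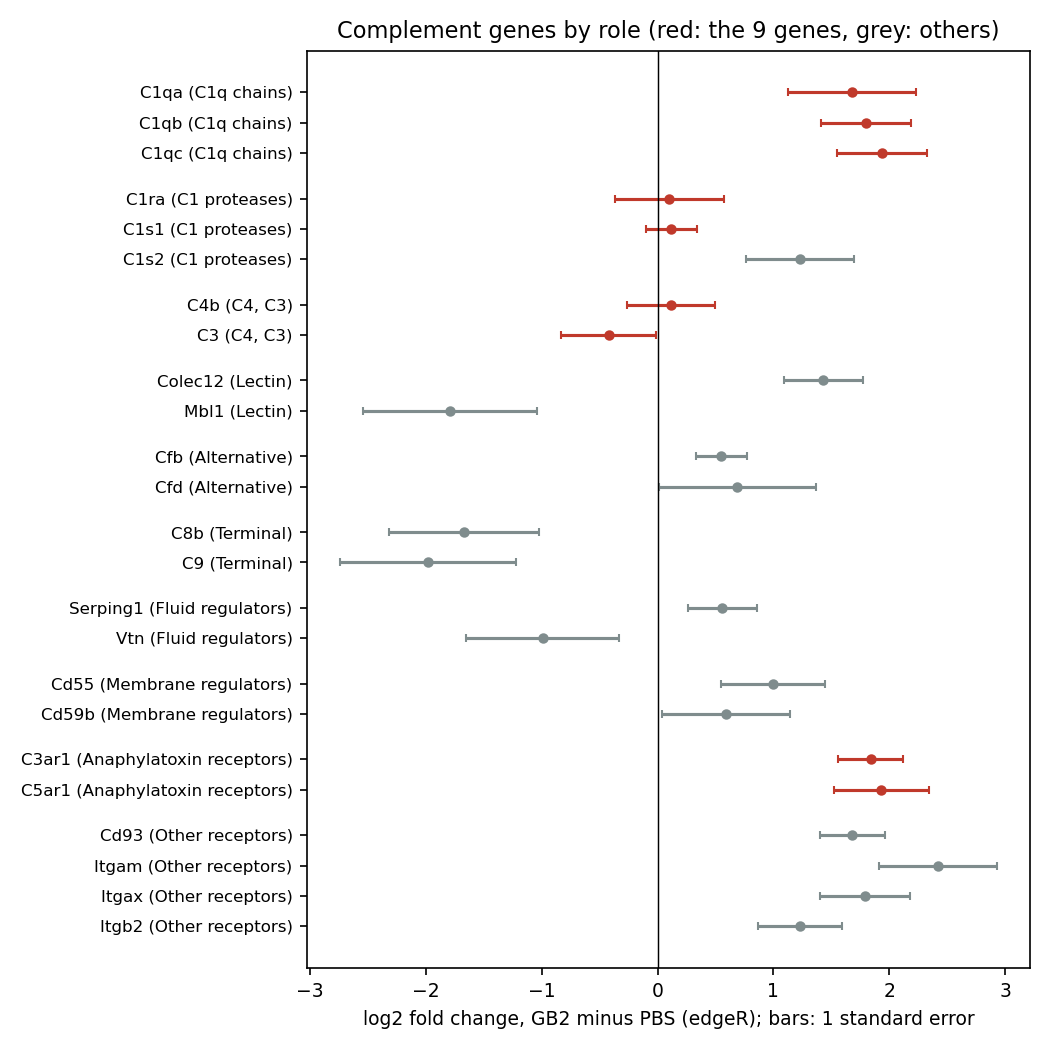
Log2 fold change of GB2 against PBS tumors from the edgeR fit, with bars of 1 standard error, for the 9 members in red and the named genes of the other complement roles in grey. C5ar2 and Vsig4, at or near 0 counts in PBS tumors, are not drawn.

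Over all 87 tested genes that the table assigns to the KEGG pathway of complement and coagulation cascades, 42 were higher and 45 lower, with a median log2 fold change of -0.079. Past the unadjusted p and the fold limit were 14 higher and 4 lower genes, against 4.37% and 1.2% of all genes tested. Without the genes that had under 3 read pairs in every PBS tumor, 40 of 85 were higher and 13 passed the limits as higher. DESeq2 called 9 of the 87 higher and 0 lower, against 1.45% higher of the 23164 genes with a DESeq2 adjusted p. The balance of signs turned without GB2 tumor 1, the tumor lowest in liver transcripts, to 46 higher and 41 lower with a median of 0.083. Apart from the members, 34 were higher and 44 lower, 9 and 4 of them past the limits, with a median of -0.32. The counts were 38 and 40 with a median of -0.04 without GB2 tumor 1. With the genes under 3 read pairs in every PBS tumor also left out, 32 of 76 were higher and 8 passed the limits as higher.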

How the data were processed

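RNA of 6 tumors (3 PBS, 3 GB2) was sequenced as poly-A selected, strand-marked, paired-end libraries. Per the labels the authors used cutadapt 1.9, HISAT2 2.2.1 and StringTie 2.1.6 and name mm10, DESeq2 and edgeR, with no role or order given. The authors deposited estimated counts as whole numbers, about 4 per read pair and not scaled between tumors, and FPKM values, scaled by transcript length and library. Against the GRCm38 annotation, 641 of 31999 common gene IDs (2.00%) kept start and end, so table positions are printed as deposited and promoter positions as GRCm38.p6. Columns were matched to tumors by name.

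Counts were tested in R 4.3.3 with edgeR 4.0.16 (filterByExpr with a minimum count of 10, TMM, glmQLFit, glmQLFTest) over 19602 genes. Log2 CPM used a prior count of 2. Alternatives were DESeq2 1.42.0, limma 3.58.1 on log2(FPKM + 1) and log2(FPKM + 0.1) of genes with at least 0.5 FPKM in 3 tumors, other scalings, no filter, counts divided by 4, the tumor number as a block, and each tumor left out. The computations were tested on simulated data. The common dispersion of 0.164 gives a coefficient of variation of 40.5% between tumors, which limits the precision at 3 tumors per group. Counting floors and intervals cover counting error only.

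The members, the other complement genes, 15 cell type marker lists and 2 response lists were chosen with earlier results of these data known. Named genes were the members, the complement genes with an unadjusted p under 0.05, the 2 of each role with the smallest p, the 5 genes most correlated with the C1q chains and with C1ra and C1s1, and of the marker lists those at or near 0 and the most abundant. Outside this rule, C1rb and C4a were named as copies of members, and 4 interferon-stimulated genes after their values were seen. C5ar2 and C5ar1 are neighbours, and no member overlaps another gene. Protein sequences and the promoters of C1qa and C4b were not used here.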

Additional observations from a re-analysis of the deposited data

How the results depend on the processing

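The standard errors given were computed from the fitted log2 fold change and its edgeR test statistic. That statistic rests on the spread between 3 tumors per group, moderated across genes. Differences smaller than these errors or near them could not be read. Fitted log2 fold changes of C1qa, C1qb, C1qc, C3ar1 and C5ar1 were above 0 and that of C3 below 0 under every alternative run. Genes called over all genes numbered 372 with DESeq2, 4 of them members, and 0 under every other alternative, and the cause was not tested. Members past the unadjusted p and the fold limit numbered 5 under each alternative but limma on log2(FPKM + 1), with 3, and 4 to 5 when single tumors were left out. Under limma on log2(FPKM + 1) the members' median was 0.73, and a pseudocount of 1 shrinks the low values of C3ar1 and C5ar1. Genes higher past the unadjusted p and the fold limit numbered 95 with limma on log2(FPKM + 1) and 376 on log2(FPKM + 0.1), against 857.

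The tumor numbers did not pair the tumors, since deviations of same-numbered tumors correlated at 0.0313, 0.154 and -0.245 across genes. With the tumor number as a block 0 genes were called, 757 genes were higher past the unadjusted limits, and C1ra was at -0.077. C1ra ranged from -0.60 to 0.40, C1s1 from -0.0034 to 0.28 and C4b from -0.28 to 0.45 when single tumors were left out, C1ra being at -0.15 without PBS tumor 3.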

Other observations

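Of the other cell type lists set beside the complement genes, endothelial markers had fitted values above 0 in 6 of 7 cases. Past the unadjusted p and the fold limit were 4 of them, against 4.37% of all genes tested, and the median log2 fold change was 1.34. The list summed to 61.0 to 75.0 CPM in PBS and 123 to 141 CPM in GB2 tumors, led by Pecam1. All 4 tested mast cell markers had fitted values above 0, 3 of them past the limits, although Cpa3 and Tpsb2 of these 3 had at most 12 counts in any PBS tumor, at 4.08 to 6.38 and 10.6 to 13.9 CPM in sum, led by Kit. None of the 4 tested dendritic cell markers passed the limits, although all had fitted values above 0, at 7.17 to 8.67 and 9.28 to 10.7 CPM in sum, led by Zbtb46, whereas Flt3, Xcr1 and Siglech stayed under 3 read pairs in every tumor. None of the 5 muscle markers passed the limits, with fitted values above 0 in 5 of 5 cases and sums of 77.2 to 136 CPM in PBS and 140 to 183 CPM in GB2 tumors, led by Acta1.

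Lymphocyte lists were low throughout, and 0 of their markers passed the limits. Of 6 tested T cell markers 1 had a fitted value above 0 and 5 below, which turned to 4 and 2 without GB2 tumor 1, with sums of 0.368 to 5.41 CPM in PBS and 0.834 to 3.49 CPM in GB2 tumors, led by Cd8a. Of 3 tested B cell markers 1 was above 0 and 2 below, which turned to 2 and 1 without GB2 tumor 1, at 0.575 to 1.32 and 0.512 to 1.20 CPM, led by Cd79a, with Ms4a1 under 3 read pairs in every tumor. Fitted values were above 0 for keratinocyte markers in 5 of 6 cases (median 0.38, led by Krt5), adipocyte markers in 5 of 5 (median 0.71, led by Fabp4) and epithelial markers in 5 of 5 tested (median 0.49, or 1.5 without PBS tumor 1, led by Cdh1). The sums overlapped, and 1 epithelial marker and none of the other lists passed the limits. All 4 red cell genes had fitted values below 0 and 2 passed the limits, against 1.2% of all genes tested, with a median of -2.80, or -4.99 without GB2 tumor 1 and -1.62 without PBS tumor 1, and Hbb-bs was the most abundant.

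Acute-phase genes, a set that C3 is known to join in liver, had fitted values above 0 in 6 of 9 cases with a median log2 fold change of 0.40. Past the limits were 2 higher genes and 1 lower gene, against 4.37% and 1.2% of all genes tested. The list summed to 80.7 to 85.3 CPM in PBS and 85.3 to 96.4 CPM in GB2 tumors. Hp, haptoglobin, was the most abundant at 30.1 and 29.8 CPM on average.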
